A study of Mus musculus with 26 samples.

Results

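The libraries labelled lung CD4 T cells, taken from untreated mice with melanoma metastases in the lung, were compared with whole lung of untreated mice across all genes. The members are the 4 untreated CD4 T cell libraries and the 5 untreated whole lung libraries, 9 of the 26 libraries of the series, chosen by their labels and joined by gene identifier. Both groups came from C57BL/6 mice that had received B16F10 melanoma cells through a vein, an injection that seeds tumour colonies in the lung, and both are labelled control, without the drug given to other groups, propranolol. Whole lung RNA holds the RNA of every lung cell, of the blood left in the organ and of the tumour colonies. CD4 T cells were isolated with magnetic beads before RNA extraction. Whether the beads captured the CD4 T cells or removed the other cells, how pure the cells were, and the age and sex of the mice are not stated in the labels. The 4 libraries are called CD4 libraries below. In bulk RNA, fewer cells of a type and less RNA per cell cannot be told apart.

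CD4 T cells recognise peptides that other cells present on MHC class II molecules. Their T cell receptor, a pair of alpha and beta chains, signals through the CD3 chains and the kinases Lck and Zap70, and the CD4 coreceptor brings Lck to the complex. Naive CD4 T cells circulate through lymphoid organs, and after activation they take on helper programmes named for their cytokines and transcription factors, or the regulatory programme controlled by Foxp3. In lung tissue they are a small part of all cells beside epithelium, endothelium, fibroblasts and macrophages, and in tumours regulatory T cells and cells with inhibitory receptors are widely studied.

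Total counts ran from 17625672 to 35600275 in the CD4 libraries and from 33232082 to 47618634 in lung. Levels are in CPM (a count divided by the library total and brought to the same scale in every library), with one value per library in the order of the replicate numbers. CPM is not scaled by gene length and is compared only within a gene or between sums over one list. Replicates were close: over genes that averaged 10 CPM or more, the median coefficient of variation was 5.45% over the 4 CD4 libraries and 9.26% over the 5 lung libraries. Nothing in the labels ties the libraries to separate animals, and every p-value below therefore reflects variation among these libraries only, which may be technical. The 2 kinds of material were deposited as separate tables, so cell type, isolation and any difference between runs cannot be told apart.

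Most genes differed. Of 19078 genes that passed the filter on low counts, 16000 (83.9%) passed edgeR's quasi-likelihood test at an adjusted p of 0.05: 7614 (39.9%) were higher and 8386 (44%) were lower in the CD4 libraries. With a difference of more than 4-fold as well, 2780 (14.6%) were higher and 4454 (23.3%) were lower. The libraries of the groups did not overlap in 78.5% of the genes tested. These shares are the background against which the counts of each gene group below are read. The median log2 difference over all genes tested, CD4 libraries minus lung, was −0.07. No gene list below was given a test of its own, and "higher" and "lower" of a gene mean that it passed the test.

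**Figure D1:**
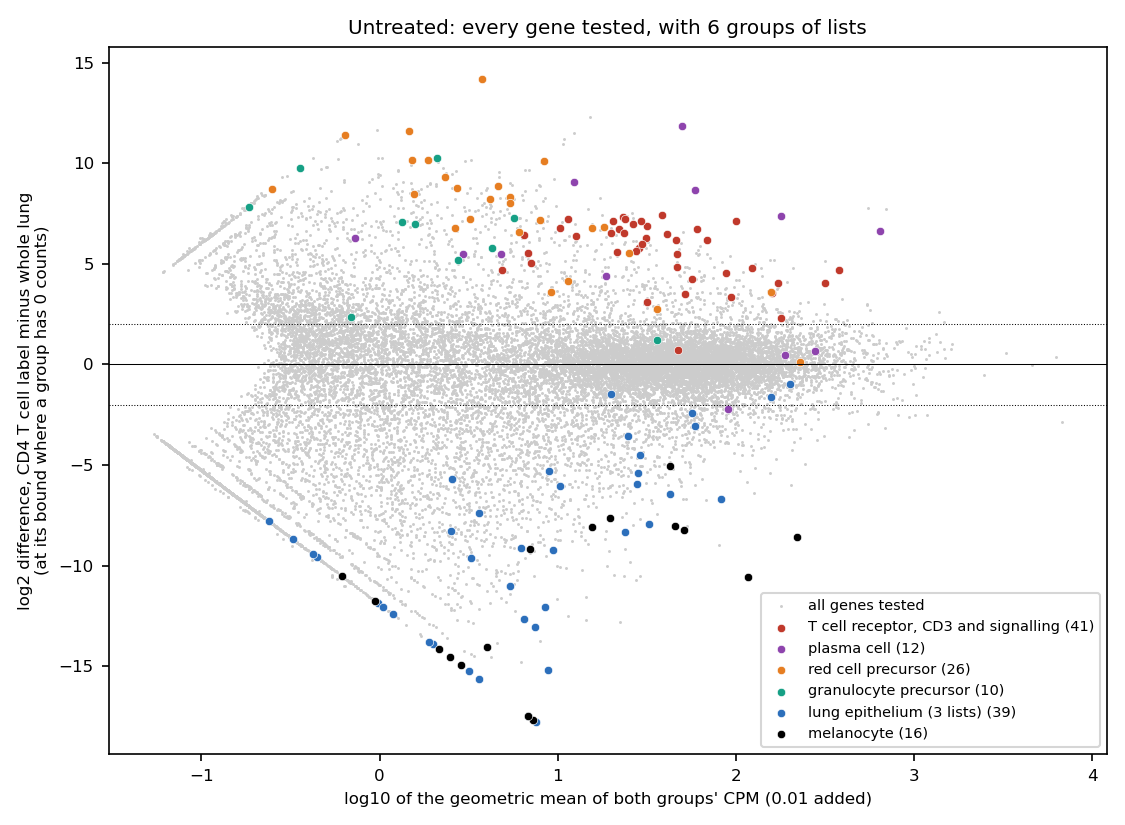
Log2 difference between the 4 CD4 libraries and the 5 whole lung libraries (vertical axis) against the level over both groups (horizontal axis, log10 CPM), with 1 grey point for each of the 19078 genes tested and coloured points for the members of gene lists. Dotted lines mark a 4-fold difference; genes with 0 counts in a group lie at a bound set by 3 counts, along the diagonals at the left; T cell and red cell precursor genes lie above the upper line almost throughout, plasma cell genes mostly do, and lung epithelium and melanocyte genes lie mostly below the lower one.

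The CD4 label was checked first against its markers. Cd4 (ENSMUSG00000023274), the coreceptor for MHC class II, stood at 648, 640.5, 640.1 and 649 CPM in the CD4 libraries and at 4.32, 4.45, 8.52, 4.96 and 6.03 CPM in lung. Cd3e (ENSMUSG00000032093), a signalling chain of the receptor complex, stood at 304, 288, 281 and 287 CPM against 2.47, 2.26, 5.2, 3.51 and 3.52 CPM. Every CD4 library was far above every lung library for both genes, and the 4 CD4 libraries lay close together. The log2 differences were 6.73 ± 0.19 for Cd4 and 6.31 ± 0.19 for Cd3e (SE, adjusted p = 3.16e-11 and 5.48e-11 in edgeR's quasi-likelihood test). By these 2 genes, the CD4 libraries were richer in CD4 T cell transcripts than whole lung, which gives no measure of purity. Transcripts of several other blood cells, described below, were also high in these libraries. The tissue named in the label was set beside lung and tumour transcripts: the CD4 libraries held 0 counts of Sftpc, Scgb1a1, Tyrp1 and Dct, markers of lung epithelium and of the tumour, which the libraries labelled monocytes do hold, as given below.

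All 8 genes of the T cell receptor and CD3 list were higher by more than 4-fold, against 14.6% of all genes tested, with log2 differences from 5.78 to 7.43 and a median of 6.80. Trac, the constant part of the receptor's alpha chain, stood at 517, 526, 534 and 529 CPM against 2.18, 2.08, 4.6, 2.94 and 2.34 CPM in lung, a log2 difference of 7.43 ± 0.20 (SE, adjusted p = 2.98e-11 in edgeR's test). The constant parts of the beta chain were close to it: Trbc1 differed by 7.14 and Trbc2 by 7.23 on the log2 scale. The near-identical sequences of Trbc1 and Trbc2 may have been split by the counting, so their separate values are uncertain. Cd3d and Cd3g, which pair with Cd3e on the cell surface, differed by 6.56 and 6.87, and Cd247, the zeta chain, by 5.78. The variable segments of the receptor, the parts joined anew in each T cell clone, took 0.0435% to 0.0452% of all counts in the CD4 libraries for the alpha and beta chains together, and 0.000226% to 0.000444% in lung. Of the 163 such segments in the tables, 91 had counts in all 4 CD4 libraries and 10 in all 5 lung libraries.

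Genes of receptor signalling and of T cells in general followed. Of 34 listed, 33 passed the filter and all 33 were higher, 32 of them by more than 4-fold, with a median log2 difference of 5.53. Ptprcap was listed at 0 in every library of all groups. Lck, the kinase that CD4 carries to the receptor, stood at 612, 610.1, 592 and 619.9 CPM against 5.12, 7.25, 12.2, 5.75 and 8.66 CPM, a log2 difference of 6.18 ± 0.23 (SE, adjusted p = 2.41e-10 in edgeR's test). The lowest CD4 library exceeded the highest lung library by a wide margin. Zap70, the kinase that docks on phosphorylated CD3 chains, differed by 6.00 and Lat, the adaptor it phosphorylates, by 6.17. The surface proteins Cd5 and Cd6, which dampen receptor signals, differed by 7.34 and 7.11, and the costimulatory receptor Cd28 by 6.97. Genes that many leukocytes share differed less: Ptprc, the CD45 phosphatase of all leukocytes, by 4.71, and Coro1a, an actin regulator of leukocytes, by 4.07. The smallest differences of the list were those of Fyn, a kinase also used outside T cells (2.29), and of Ubash3b, a phosphatase (0.74).

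**Figure D2:**
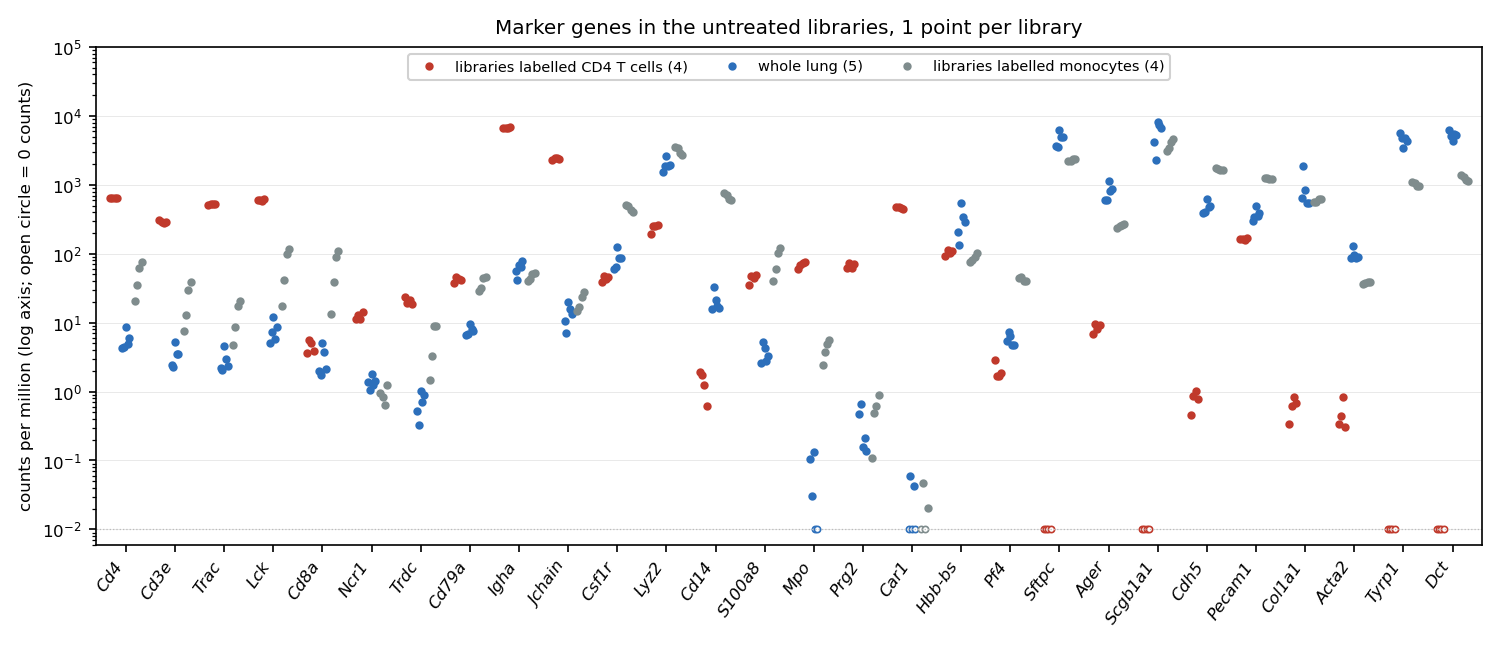
CPM on a log axis for 28 marker genes, 1 point per untreated library, for the 4 CD4 libraries, the 5 whole lung libraries and the 4 libraries labelled monocytes. Open circles are libraries with 0 counts; the CD4 libraries are highest for Cd4, Cd3e, Trac and Lck, but also for Igha, Jchain, Mpo, Prg2 and Car1, and have 0 counts of Sftpc, Scgb1a1, Tyrp1 and Dct.

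Promoter sequences of T cell receptor genes are shown because the whole group was higher together. Promoter windows of 250 bases before the start were taken from RefSeq (GRCm38.p6, another build than that of the counts), which held windows for 29 of the 42 genes of both T cell lists, 38 windows in all. The core of the ETS family motif, AGGAAG on either strand, was found in 23 of these 38 windows (60.5%), against 29.5% of all 32851 windows of the table. The core of the RUNX family motif, TGTGGT on either strand, was found in 7 of 38 (18.4%), against 14% of all windows. In 12 windows of the melanocyte list given below, the ETS core was in 4 (33.3%) and the RUNX core in 3 (25%). In 24 windows of the red cell precursor list, they were in 4 (16.7%) and 3 (12.5%). The letters of neither hexamer contain the other. A match is a description of letters and shows no binding. In the windows below, capitals mark either hexamer on either strand. The Cd3e window lies on the minus strand at chr9:45009612-45009861 and holds 2 matches, and the first start listed for Lck lies on the minus strand at chr4:129573642-129573891 and holds 4 matches.
Cd3e: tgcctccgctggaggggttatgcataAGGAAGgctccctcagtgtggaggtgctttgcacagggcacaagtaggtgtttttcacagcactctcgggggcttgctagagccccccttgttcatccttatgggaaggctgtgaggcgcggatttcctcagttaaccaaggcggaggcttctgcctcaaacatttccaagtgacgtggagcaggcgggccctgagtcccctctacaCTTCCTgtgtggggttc
Lck: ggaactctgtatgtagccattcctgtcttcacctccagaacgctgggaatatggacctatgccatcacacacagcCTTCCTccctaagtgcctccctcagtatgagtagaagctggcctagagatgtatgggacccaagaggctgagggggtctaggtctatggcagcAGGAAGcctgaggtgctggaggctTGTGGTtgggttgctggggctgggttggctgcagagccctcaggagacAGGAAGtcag

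Transcription factors of T cells were mostly higher, 29 of 32 against 39.9% of all genes tested, with 2 lower and a median log2 difference of 3.26. Tcf7, a factor of naive and memory T cells, stood at 1141, 1166, 1140 and 1176 CPM against 34.2, 35.2, 43.8, 40.1 and 37.5 CPM, a log2 difference of 4.82 ± 0.08 (SE, adjusted p = 1.57e-12 in edgeR's test). No library of either group came near the other group. Its relative Lef1 differed by 5.70, Bcl11b, which keeps cells in the T lineage, by 6.51, and the chromatin organiser Satb1 by 5.28. Zbtb7b, the factor that directs thymocytes to the CD4 lineage, stood at 172, 168, 177 and 195 CPM against 66.6, 76.8, 80.9, 68.8 and 72.4 CPM. The groups did not overlap for it, but the log2 difference was only 1.18 ± 0.08 (SE, adjusted p = 4.82e-08 in edgeR's test). Ets1, a factor also of endothelium, differed by 1.16. Among the lower factors was Id3, an inhibitor of E proteins, at 23.8 to 26.3 CPM against 51.6 to 89.9 CPM.

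Genes of naive and recirculating T cells were higher in 16 of 18 cases, with a median log2 difference of 4.60. Ccr7, the chemokine receptor that guides cells into lymph nodes, stood at 232, 222, 231 and 228 CPM against 8.35, 10.7, 13.7, 9.51 and 9 CPM. All CD4 libraries were above all lung libraries, with a log2 difference of 4.37 ± 0.13 (SE). Il7r, the receptor for the survival cytokine IL-7, differed by 5.52, and Ms4a4b, a membrane protein of naive T cells, by 6.57. Nsg2 stood at 172 to 188 CPM against 0.602 to 2.4 CPM, Ms4a6b differed by 5.87, and Bach2, a repressor that keeps T cells from effector fates, by 3.18. Klf2, the factor that drives S1pr1, is also abundant in endothelium and differed by 0.77. S1pr1, the receptor with which lymphocytes leave lymphoid organs, is also abundant in endothelium and differed by only 1.18. The 2 lower members were Igfbp4 (−0.35, not called with upper quartile scaling) and Ly6c1 (−1.22), both of which other lung cells express as well.

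The regulatory T cell list had 16 of 20 members higher, 15 of them by more than 4-fold, and 4 lower, with a median log2 difference of 3.96. Foxp3, its defining transcription factor, stood at 98.8, 106, 110.1 and 113 CPM against 0.624, 0.361, 1.1, 0.63 and 0.796 CPM. Lung levels of Foxp3 were near 1 CPM or under it in every library, and no library overlapped. The log2 difference was 7.13 ± 0.18 (SE, adjusted p = 1.65e-11 in edgeR's test), beside 6.31 for Cd3e. Izumo1r, the folate receptor 4 of these cells, stood at 169, 178, 181 and 181 CPM against 0.234, 0.241, 0.444, 0.189 and 0.591 CPM, and Gpr83, a receptor of the same cells, at 25.5, 19.4, 24 and 24.7 CPM against 0.078, 0.0602, 0.0523, 0 and 0.0909 CPM. Their log2 differences were 8.90 and 8.55. Ctla4, the inhibitory receptor that regulatory cells carry, differed by 8.24, Tnfrsf4 (OX40) by 6.47, Il2ra, the high affinity chain of the IL-2 receptor, by 5.96, and Ikzf2 (Helios) by 4.45. Tnfrsf18 (GITR), a costimulatory receptor abundant on these cells, differed by 4.95, Tnfrsf9 (4-1BB) by 2.73 and the Ikaros family factor Ikzf4 by 3.49. Il1rl1, the IL-33 receptor of tissue regulatory and T helper 2 cells, stood at 35.2, 35.7, 35 and 38.5 CPM against 2.13, 2.26, 2.69, 3.02 and 3.37 CPM (3.64). Klrg1, a receptor of differentiated cells, differed by 3.45, Itgb8, an integrin chain that activates TGF-β, by 2.97, and Ebi3, a cytokine subunit, by 1.98. The cytokine Il10 was low, at 2.78, 2.44, 2.19 and 2.56 CPM against 0 to 0.189 CPM.

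The 4 lower members of that list are made by other lung cells too. Areg, a growth factor for epithelium, stood at 1.02, 0.577, 0.618 and 0.618 CPM against 3.54, 10.1, 5.28, 3.65 and 2.64 CPM, a log2 difference of −2.98 ± 0.44 (SE). Nrp1, a coreceptor abundant in endothelium, stood at 75.8 to 83.2 CPM against 160.4 to 246 CPM. Lrrc32, which holds latent TGF-β at the surface, overlapped between the groups (28.2 to 37.7 against 37.5 to 67.4 CPM) and Capg, an actin capping protein, differed by −0.59.

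**Figure D3:**
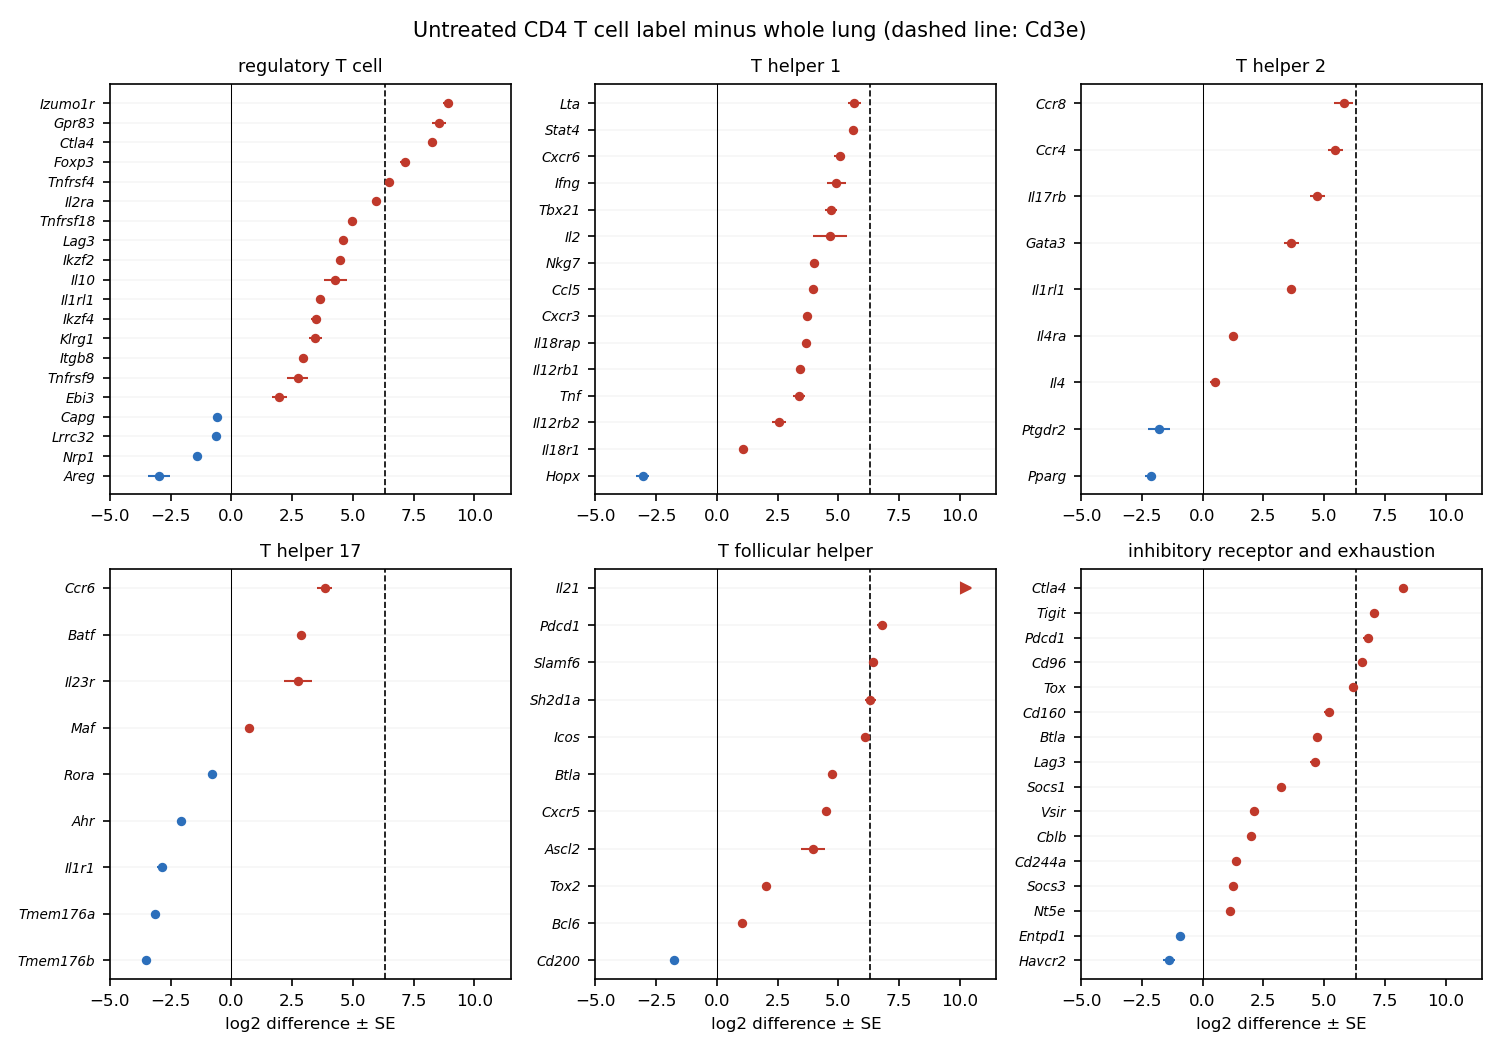
Log2 difference with its SE for tested genes of 6 lists of helper, regulatory and inhibitory genes (red higher, blue lower, arrowhead a lower bound), CD4 libraries minus whole lung, with a dashed line at the value of Cd3e. Foxp3, Ctla4, Izumo1r, Gpr83, Tigit and Il21 lie to the right of the line, and most T helper 17 genes lie left of 0.

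Of the T helper 1 list, 14 of 15 genes were higher (median log2 difference 3.94). Tbx21, the lineage factor T-bet, stood at 31.7, 31.9, 33.8 and 39 CPM against 0.884, 0.782, 2.14, 1.09 and 1.18 CPM, and Ifng, the lineage cytokine, at 2.27, 2.15, 3.03 and 3.15 CPM against 0.104, 0.0602, 0.0523, 0.147 and 0.0227 CPM. Both were higher in every CD4 library than in any lung library, with log2 differences of 4.70 ± 0.24 and 4.92 ± 0.40 (SE). The chemokine receptor Cxcr3 differed by 3.71, the signalling factor Stat4 by 5.60, and the cytokine Tnf by 3.39. The receptor chains for IL-12 differed by 3.40 (Il12rb1) and 2.55 (Il12rb2), and those for IL-18 by 3.66 (Il18rap) and 1.09 (Il18r1). Lta, lymphotoxin alpha, differed by 5.66 and Cxcr6, a receptor of cells held in tissue, by 5.05. Ccl5 and Nkg7, a chemokine and a granule protein that cytotoxic lymphocytes share, stood at 112 to 137 and 51.7 to 54.1 CPM and differed by 3.94 and 3.98. Hopx, which alveolar type 1 cells also express, was the 1 lower member (18.5 to 24.7 against 77.7 to 236 CPM).

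Of the T helper 2 list, 9 of 12 genes passed the filter, 7 of them higher and 2 lower (median 3.64). Gata3, the lineage factor, stood at 64, 61.6, 66 and 65.5 CPM against 3.12, 1.66, 7.74, 6.17 and 5.09 CPM, with no overlap. The receptors Ccr4 and Ccr8 differed by 5.47 and 5.81, the IL-25 receptor Il17rb by 4.72, and Il4ra, the IL-4 receptor chain of many cells, by 1.24. Il4, the lineage cytokine, stood at 1.87, 2.12, 2.11 and 2.5 CPM against 1.48, 1.23, 1.23, 1.81 and 1.3 CPM, a log2 difference of 0.51 ± 0.22 (SE, adjusted p = 0.0458 in edgeR's test). The groups lay next to each other without overlap, and the call did not hold in every alternative. It was lost with DESeq2 size factors (adjusted p = 0.0688 in edgeR's test) and without the filter (0.184). A block of the replicate number, which also leaves out lung replicate 5, lost it too (0.185). So did leaving out lung replicate 1, 2, 3 or 5 or CD4 replicate 2, 3 or 4 (0.0641 to 0.132). The cytokines Il5 and Il13 were below the filter, at no more than 0.397 and 0.833 CPM in any CD4 library, and Il9 had 0 counts in all 9 libraries. The lower members were Ptgdr2 (−1.78) and Pparg (−2.14), the second also a factor of alveolar macrophages.

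The T helper 17 list was mixed: of 13 genes 10 passed the filter, 4 higher and 6 lower, with a median log2 difference of −0.96. Ccr6, the chemokine receptor of these cells, stood at 7.38, 11.2, 11.7 and 9.08 CPM against 0.442, 0.361, 0.81, 0.504 and 1.07 CPM. Every CD4 library was above every lung library, and the log2 difference was 3.84 ± 0.30 (SE, adjusted p = 1.97e-07 in edgeR's test). Il23r, which receives IL-23, was higher by 2.75, at 0.843 to 1.27 CPM. The factors Batf and Maf, which several helper programmes use, were higher (2.88 and 0.73), and the nuclear receptor Rora was lower (−0.81). The cytokines Il17a and Il22 had 0 counts in all 9 libraries and Il17f at most 0.421 CPM, where 3 counts over the group would be 0.0257 CPM in the CD4 libraries. Ahr, Il1r1, Tmem176a and Tmem176b, which lung stromal and myeloid cells also express, were lower by 2.08 to 3.51 on the log2 scale.

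The T follicular helper list had 10 of 11 genes higher (median 4.73). Il21, the cytokine with which these cells help B cells, stood at 16.1, 17.9, 20.3 and 17.9 CPM and had 0 counts in all 5 lung libraries. Against the level of 3 counts over the lung group, it was at least 1213-fold higher. Pdcd1, the receptor PD-1, stood at 87.9, 93.8, 84.8 and 92.1 CPM against 0.312, 0.782, 1.1, 0.756 and 0.796 CPM, a log2 difference of 6.79 ± 0.19 (SE). Cxcr5, the receptor for entry into B cell follicles, differed by 4.50, Icos, a costimulatory receptor, by 6.10, and Sh2d1a, an adaptor for contacts with B cells, by 6.32. Slamf6, another contact receptor, stood at 200 to 215 CPM against 1.69 to 2.74 CPM (6.43), and the factors Ascl2 and Tox2 differed by 3.95 and 2.02. Bcl6, the lineage factor, is present in many cells and differed by 1.04, and Cd200, which endothelium also carries, was lower (−1.77).

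Inhibitory receptors and exhaustion genes were higher in 14 of 16 cases (median 3.92), 10 of them by more than 4-fold. Tigit, which competes with an activating receptor for its ligand, stood at 50.3, 49.8, 51.4 and 48 CPM against 0.182, 0.511, 0.287, 0.294 and 0.455 CPM, and Ctla4 at 95.4, 98.9, 102 and 95.2 CPM against 0.39, 0.241, 0.366, 0.273 and 0.227 CPM. The CD4 libraries were above all lung libraries in both. Cd96, another receptor of that family, differed by 6.57, the exhaustion factor Tox by 6.20, Btla by 4.73 and Lag3, which binds MHC class II, by 4.61. Cd160, a receptor shared with cytotoxic cells, differed by 5.20, Vsir (VISTA), also of myeloid cells, by 2.13 and Cd244a by 1.38. The brakes inside the cell were higher as well: the ubiquitin ligase Cblb by 1.98 and the suppressors of cytokine signalling Socs1 and Socs3 by 3.24 and 1.26. Nt5e (CD73), which makes adenosine, differed by 1.15. The 2 lower genes were Havcr2 (TIM-3), at 2.72, 3.4, 3.03 and 5.44 CPM against 7.12, 8.73, 12.9, 8.19 and 7.82 CPM, and Entpd1 (CD39), at 30.6 to 33.8 CPM against 45 to 75.2 CPM, both of which myeloid or endothelial cells express as well.

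Among costimulation, activation and residency genes, 16 of 18 were higher (median 5.26). Cd40lg, the ligand with which helper cells activate B cells, stood at 44.8, 44.3, 44.1 and 42.8 CPM against 0.104, 0, 0.235, 0.147 and 0.5 CPM, a log2 difference of 7.61 ± 0.35 (SE). Cd69, an early activation and residency marker, stood at 78.3, 83.8, 94 and 83.6 CPM against 1.3, 1.8, 2.33, 1.7 and 1.84 CPM. Cd27, a receptor that naive and memory cells carry, stood at 219.8 to 244 CPM against 1.26 to 3.69 CPM (6.72). Itgae (CD103), an integrin of cells held in epithelium, differed by 2.13. The 2 lower members were Cd44, at 176 to 197 CPM against 584 to 789.9 CPM, and the collagen receptor Itga1, at 13.6 to 17.3 CPM against 102 to 225 CPM. Memory T cells and tissue-resident T cells carry these 2 proteins, as do many other lung cells.

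Of 20 T cell cytokine genes, 13 passed the filter, 12 of them higher and 1, Csf2, not called. Ltb, lymphotoxin beta, stood at 414, 436, 421 and 432 CPM against 7.7, 7.28, 12.9, 8.21 and 8.73 CPM, a log2 difference of 5.47 ± 0.15 (SE). Il2, the growth factor of T cells, was low, at 1.02, 0.577, 0.646 and 0.309 CPM against 0, 0, 0.0523, 0 and 0.0455 CPM. Cytokine receptors were split, with 13 of 21 higher and 4 lower (median 1.26). Il27ra differed by 6.10 and Il2rb, the shared chain for IL-2 and IL-15, by 5.66. Tgfbr2, a receptor chain for TGF-β, stood at 326 to 347 CPM against 228 to 345 CPM and was not called except with upper quartile scaling, while Tnfrsf1a, a TNF receptor of most cells, was lower (−2.13). Of the leukocyte trafficking list 23 of 24 genes were higher (median 3.75), with the integrin chains Itgb7 at 5.40 and Itgal at 4.08. Its lower member was Itgb1 (−1.30), an integrin chain used by nearly all cells.

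Other lymphocytes were looked for next. Cd8a, the coreceptor of the other main T cell class, stood at 3.69, 5.51, 5.14 and 3.89 CPM against 2, 1.75, 5.04, 3.7 and 2.14 CPM and was not called, with overlapping libraries (log2 difference 0.54 ± 0.32, SE). Without lung replicate 3, the highest of the lung group, it was called higher (0.83, adjusted p = 0.0146 in edgeR's test), as it was with upper quartile scaling (0.72, adjusted p = 0.0489). Its partner Cd8b1 was higher by 1.56. The whole list of CD8 T cell and natural killer genes had 19 of 20 members higher (median 3.91), with a summed level of 841 to 920 CPM in the CD4 libraries against 30.6 to 57.3 CPM in lung, and none at 0. Ncr1, a natural killer receptor, stood at 11.2, 12.8, 11.1 and 14.3 CPM against 1.38, 1.05, 1.8, 1.26 and 1.43 CPM, Klrb1c (NK1.1) differed by 4.07, and the pore-forming Prf1 by 3.20. Of 9 genes of gamma-delta T cells, 7 were higher and 1 lower. Trdc, the constant part of the delta chain, stood at 23.7, 19, 21.3 and 18.7 CPM against 0.52, 0.331, 1.02, 0.714 and 0.887 CPM, and the lower gene was the factor Sox13 (−5.16).

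B cell genes were higher in 15 of 18 cases and lower in 2 (median 2.11). Cd79a, a signalling chain of the B cell receptor, stood at 37.1, 45.8, 43.6 and 42.1 CPM against 6.55, 6.83, 9.7, 8.17 and 7.59 CPM. The groups did not overlap, with a log2 difference of 2.34 ± 0.12 (SE), and Ms4a1 (CD20) was close to it at 2.18. The B cell factor Ebf1, which stromal cells also use, was lower (−1.48). In the same libraries, immunoglobulin transcripts differed much more than these surface markers. All immunoglobulin genes together took 4.1% to 4.48% of all counts in the CD4 libraries and 0.0146% to 0.0314% in lung.

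Plasma cell genes were higher in 11 of 12 cases (median 5.89), with a summed level of 14255 to 14894 CPM against 566 to 704 CPM in lung. Igha, the heavy chain of immunoglobulin A, stood at 6646, 6713, 6569 and 6896 CPM against 55.3, 42.2, 69.5, 65 and 78.1 CPM. Ighg2c, a heavy chain of immunoglobulin G, stood at 3016, 3207, 3089 and 3299 CPM against 1.07, 0.481, 0.444, 0.819 and 1.02 CPM. Jchain, which joins units of secreted immunoglobulins, stood at 2299, 2455, 2489 and 2340 CPM against 10.5, 6.98, 19.9, 15.5 and 13.4 CPM. The 4 CD4 libraries were alike in all of these, and their log2 differences from lung were 6.66 ± 0.17, 11.88 ± 0.21 and 7.39 ± 0.26 (SE). Ighm, the heavy chain of immunoglobulin M that B cells and plasma cells share, differed by 7.74 and the light chain Igkc by 7.76. Ighg2b and Ighg1 differed by 8.67 and 9.09. The 348 immunoglobulin variable segments together took 0.987% to 1.1% of all counts in the CD4 libraries and 0.00293% to 0.00608% in lung. Reads of such similar segments may have been assigned to a wrong one, so single segments are uncertain. The 1 lower gene was Sdc1 (−2.22), a marker of plasma cells that epithelium also carries.

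Genes of red cell precursors were among the most different of all. This list and those of granulocyte precursors and of basophils and eosinophils were put together after the values had been seen, so their counts describe how they were chosen. Of the 10 genes with the largest differences upward, with at least 10 CPM in the CD4 libraries and without predicted, immunoglobulin and T cell receptor genes, 6 are in it: Car1, Cldn13, Hemgn, Btnl10, Rhag and Ermap. Car1, a carbonic anhydrase of red cells, stood at 473, 481, 462 and 442 CPM against 0, 0.0602, 0, 0.042 and 0 CPM. Only 2 lung libraries held any Car1 counts, 4 counts in all, so the fitted difference of 14.18 rests on few counts. It moved to 14.79 without lung replicate 2. Ermap, a surface protein of red cells, stood at 290.1, 284, 284 and 290.4 CPM against 0.104, 0.241, 0.209, 0.336 and 0.273 CPM. Klf1, a main transcription factor of the lineage, stood at 93.4, 92.7, 88.2 and 86 CPM against 0.26, 0.421, 0.0523, 0.462 and 0.387 CPM. Every CD4 library was above every lung library by more than 100 CPM for Car1 and Ermap and by more than 80 CPM for Klf1.

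The red cell precursor list had 25 of 26 genes higher and 1 not called, with a median log2 difference of 8.13. Its summed level was 3202 to 3326 CPM in the CD4 libraries and 259 to 326 CPM in lung. Gata1, the other main factor, differed by 8.24, Rhag, a membrane channel of red cells, by 10.15, Hemgn, a nuclear protein of the lineage, by 11.61, and Btnl10 by 10.16. Slc4a1, the anion exchanger band 3, differed by 6.83. Cldn13 stood at 43.7, 43.7, 37.3 and 38.9 CPM and had 0 counts in lung, which is at least 2749-fold higher than 3 counts over the lung group. The separate erythroid list, not among those put together after the values had been seen, was less uniform. Of its 9 tested genes, 5 were higher, 2 lower and 2 not called, with a median log2 difference of 1.45. Its summed level overlapped between the groups, at 552 to 599 CPM against 202 to 802 CPM in lung. Globin genes, which red cells keep after losing the nucleus, went both ways. Hbb-bs, a beta globin, stood at 93, 113, 102 and 109 CPM against 204, 132, 537, 343 and 284 CPM and was lower (−1.62 ± 0.32, SE). Hba-a1, an alpha globin, was lower with overlapping libraries (−0.88) and its copy Hba-a2 was higher (1.45). Near-identical globin copies make the values of single globin genes uncertain.

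All 10 genes of the granulocyte precursor list were higher (median 7.04), with a summed level of 255 to 332 CPM against 11.2 to 60.0 CPM in lung. Mpo, the myeloperoxidase of their granules, stood at 60.4, 68.8, 73.6 and 75.8 CPM against 0.104, 0.0301, 0.131, 0 and 0 CPM. Ctsg, a granule protease, stood at 11.6, 11.4, 14 and 14.2 CPM with 0 counts in lung, at least 859-fold higher. The granule genes Elane, Camp and Ngp differed by 7.08, 7.01 and 7.27. Of the 14 genes of the neutrophil list, which also holds Mpo, 11 were higher and 3 were not called (median 3.19). The alarmins S100a8 and S100a9, abundant in mature neutrophils, differed less, by 3.49 and 3.41, at 34.6 to 48.6 and 53 to 71.4 CPM. Csf3r and Cxcr2, receptors of mature neutrophils, were not called, at 7.21 to 10.8 CPM against 6.53 to 13 CPM and 1.59 to 2.84 CPM against 1.8 to 3.08 CPM.

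All 7 basophil and eosinophil genes were higher (median 7.64), with a summed level of 131 to 149 CPM against 0.601 to 1.14 CPM in lung. Prg2, a granule protein of eosinophils, stood at 61.8, 73.1, 63 and 70.8 CPM against 0.468, 0.662, 0.157, 0.21 and 0.136 CPM. Prss34, a protease of basophils, stood at 27.4, 29.2, 27.8 and 28.4 CPM, and lung held 2 counts of it in 1 library. The ratio of its summed counts was 2851, with an exact 95% interval for counting error of 788 to 23549. Mcpt8 of basophils and Epx of eosinophils differed by 8.54 and 9.17. Of 9 tested mast cell and basophil genes, a list that also holds Mcpt8, 6 were higher and 3 lower. Among the lower ones was Hdc, the enzyme that makes histamine, at −2.33. Platelet genes were mixed, 4 of 8 higher and 3 lower: Pf4 and Ppbp, stored in platelet granules, were lower (−1.63 and −2.84), and Itga2b, an integrin of platelets and megakaryocytes, was higher (1.75). The part of these blood cells in the differences of the T cell genes was not tested.

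Monocyte and macrophage genes were lower in 17 of 22 cases and higher in 4 (median −1.97), with a summed level of 649 to 827 CPM against 3581 to 4662 CPM in lung. Lyz2, lysozyme of myeloid cells, stood at 194, 249.6, 251 and 262 CPM against 1530, 1852, 2594, 1891 and 1932 CPM. Csf1r, the receptor for their growth factor, stood at 39.5, 47.4, 42.3 and 45.7 CPM against 60.3, 63.4, 126, 86.1 and 85.8 CPM, and Cd14, a coreceptor for endotoxin, at 1.93, 1.73, 1.24 and 0.618 CPM against 15.8, 32.6, 21, 17.2 and 16.2 CPM. All 3 were lower in every CD4 library, with log2 differences of −3.14 ± 0.16, −1.05 ± 0.19 and −4.05 ± 0.34 (SE). Of macrophage genes, C1qa, of complement, differed by −5.95, Marco, a scavenger receptor of alveolar macrophages, by −7.35, and Adgre1 (F4/80) by −1.73. Higher members were Ly6c2 (4.04), which some T cells also express, the chemokine receptor Ccr2 (1.77), Cybb (0.71) and Itgam (0.49). Of 14 dendritic cell genes, 2 were higher and 7 lower. Flt3, a growth factor receptor, was higher (1.65), Fscn1, an actin bundling protein, was lower (−5.90), and Xcr1 and Siglech, markers of the cross-presenting and the plasmacytoid type, were not called (1.02 to 1.86 against 1.2 to 2.9 CPM and 2.89 to 4.45 against 0.511 to 5.28 CPM). Xcr1 was called lower without lung replicate 1 (adjusted p = 0.0328 in edgeR's test) and by DESeq2.

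Every gene of the lists of lung epithelium, endothelium, fibroblasts, smooth muscle and mesothelium was lower in the CD4 libraries, and some were at 0. Sftpc, the surfactant protein of alveolar type 2 cells, had 0 counts in all 4 CD4 libraries and stood at 3600, 3495, 6304, 4892 and 4970 CPM in lung. It was at least 181136-fold lower, taking 3 counts over the CD4 group as the floor. Scgb1a1, the secretory protein of club cells of the airway, also had 0 counts in the CD4 libraries against 4119, 2273, 8191, 7477 and 6570 CPM in lung, at least 222937-fold lower. Sftpa1, Slc34a2 and Cxcl15, other genes of lung epithelium, had 0 counts as well and were at least 50306-, 39178- and 19132-fold lower.

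The epithelial lists held 12 of 12 alveolar type 2 genes, 12 of 12 alveolar type 1 genes and 15 of 15 airway genes lower, against 44% of all genes tested. With genes at 0 set to their bound, the medians were −10.06, −8.58 and −8.25 on the log2 scale. Not every member was at 0. Ager, a receptor of alveolar type 1 cells, stood at 6.75, 9.55, 8.17 and 9.17 CPM against 611, 595, 1122, 820.3 and 875 CPM. Abca3, a lipid transporter of alveolar type 2 cells, stood at 151, 151, 147 and 151 CPM against 212, 249, 343, 273 and 281 CPM, and Epcam, an epithelial adhesion protein, 11.6 to 13.1 CPM against 21.7 to 41.7 CPM. Summed over the list, the CD4 libraries held 273 to 285 CPM of alveolar type 2 genes against 7966 to 13790 CPM in lung.

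**Figure D4:**
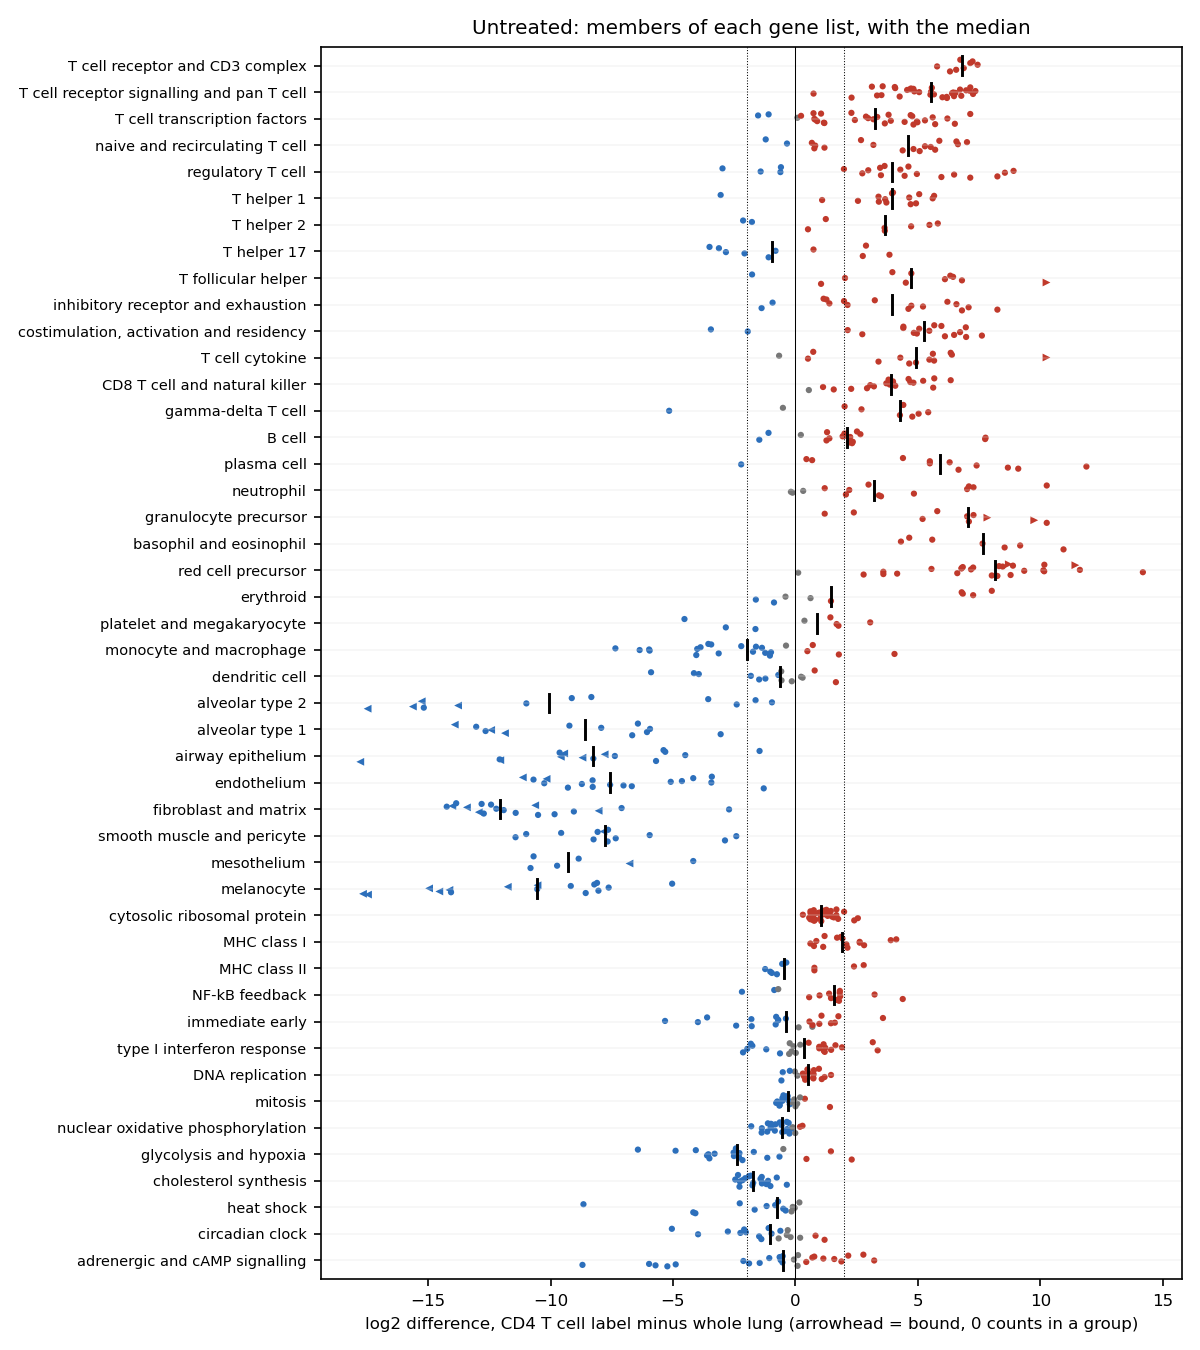
Log2 difference, CD4 libraries minus whole lung, of each tested member of 46 gene lists (1 point per gene, red higher, blue lower, grey not called, arrowheads at the bound for genes with 0 counts in a group) with the list's median as a black bar. Most T cell lists and the plasma cell and blood precursor lists have medians right of 0, the lists of lung epithelium, endothelium, fibroblasts, smooth muscle, mesothelium and melanocytes lie left of 0 throughout, and lists of general cell functions have medians closer to 0.

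Endothelium, fibroblast, smooth muscle and mesothelium genes were lower in 17 of 17, 18 of 18, 12 of 12 and 6 of 6 cases. Cdh5, the cadherin of endothelium, stood at 0.454, 0.865, 1.01 and 0.772 CPM against 384, 407, 619.6, 482 and 500.3 CPM, a log2 difference of −9.29 ± 0.22 (SE). Col1a1, a collagen of fibroblasts, stood at 0.34, 0.609, 0.843 and 0.68 CPM against 653, 1855, 834, 536 and 546 CPM, and Acta2, an actin of smooth muscle, at 0.34, 0.449, 0.843 and 0.309 CPM against 87.6, 128, 95.1, 86.1 and 89.5 CPM. The CD4 libraries were about 1 CPM or below for all 3. Pecam1, an adhesion protein of endothelium that leukocytes and platelets also carry, stood at 159.5 to 171 CPM against 299.8 to 492 CPM (−1.30), and Fn1, fibronectin, differed by −2.71. Summed over the lists, the CD4 libraries held 265 to 275 CPM of endothelium genes and 98.0 to 138 CPM of fibroblast genes, against 2526 to 4517 and 6158 to 12505 CPM in lung.

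Melanoma transcripts were abundant in the lung libraries and nearly absent from the CD4 libraries, with a summed level of the melanocyte list of 18290 to 27680 CPM against 30.2 to 32.7 CPM. All 16 melanocyte genes were lower by more than 4-fold, and 7 of them had 0 counts in the CD4 libraries. Tyrp1 and Dct, enzymes of melanin synthesis, had 0 counts in the CD4 libraries and stood at 5601, 4776, 3430, 4848 and 4353 CPM and at 6193, 5125, 4340, 5514 and 5322 CPM in lung. They were at least 179158- and 206313-fold lower. Tyr, the first enzyme of melanin synthesis, Slc45a2, a transporter of pigment granules, Sox10, a lineage factor, and Syt4 also had 0 counts, and were at least 23818-, 31802-, 17892- and 24777-fold lower. Pmel, a structural protein of pigment granules, was not at 0, at 10.3, 11.2, 12.6 and 12.5 CPM against 4930, 4270, 3304, 4192 and 3954 CPM.

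The promoters of the 3 melanin enzymes are shown because they were abundant in lung and at 0 in the CD4 libraries together. The E-box bound by the melanocyte factor MITF, searched as CATGTG on either strand, was found in 7 of 12 RefSeq windows of the melanocyte list (58.3%, 9 of 16 genes matched, GRCm38.p6), against 12.3% of all 32851 windows and 18.4% of the T cell windows. A CATGTG followed by GT holds the RUNX core as well. Capitals mark the E-box match. The Tyrp1 window lies on the plus strand at chr4:80833963-80834212, the Dct window on the minus strand at chr14:118052247-118052496 and the Tyr window on the minus strand at chr7:87493513-87493762.
Tyrp1: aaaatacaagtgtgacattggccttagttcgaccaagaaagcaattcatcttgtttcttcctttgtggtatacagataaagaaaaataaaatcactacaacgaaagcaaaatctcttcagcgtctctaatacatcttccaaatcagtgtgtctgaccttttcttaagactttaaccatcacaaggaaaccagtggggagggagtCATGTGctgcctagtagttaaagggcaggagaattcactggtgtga
Dct: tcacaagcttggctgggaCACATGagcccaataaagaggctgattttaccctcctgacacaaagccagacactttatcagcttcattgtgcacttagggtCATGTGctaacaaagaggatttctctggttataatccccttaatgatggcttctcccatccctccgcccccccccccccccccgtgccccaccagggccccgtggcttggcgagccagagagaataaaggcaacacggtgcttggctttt
Tyr: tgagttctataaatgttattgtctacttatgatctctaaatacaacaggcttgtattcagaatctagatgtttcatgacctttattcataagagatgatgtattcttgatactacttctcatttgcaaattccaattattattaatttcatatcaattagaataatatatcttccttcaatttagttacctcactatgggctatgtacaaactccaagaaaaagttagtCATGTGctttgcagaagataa

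The other sorted material of the series was set beside these absent transcripts. It held RNA of other lung cells, so it gives no measure of what CD4 T cells isolated from lung would hold. In its untreated libraries the endothelium list summed to 10489 to 10794 CPM, above the 2526 to 4517 CPM of whole lung. Its fibroblast list summed to 7920 to 8337 CPM, against 6158 to 12505 CPM. The 4 untreated libraries labelled monocytes, which were sorted from lung, held Sftpc at 2189, 2252, 2360 and 2397 CPM, Scgb1a1 at 3100, 3410, 4235 and 4608 CPM and Tyrp1 at 1108, 1057, 978 and 976 CPM, where the CD4 libraries held 0 counts. Conversely, Car1 stood at 0 to 0.0469 CPM and Ighg2c at 3.05 to 7.87 CPM in them. Genes of spleen, lymph node and thymus, listed after the values had been seen, were looked up as well. Of 14, 5 had 0 counts in the CD4 libraries, among them Tlx1, a factor of the developing spleen, and the lymphoid tissue chemokines Ccl19 and Ccl21a. The others held counts there. The summed level of the list overlapped between the groups, at 39.9 to 54.4 CPM against 32.7 to 62.6 CPM in lung. Of the 7 tested against lung, 2 were higher, 1 of them by more than 4-fold, and 2 were lower, both by more than 4-fold. The organ from which the blood cell transcripts came was not tested.

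Genes of general cell functions differed by less. All 32 cytosolic ribosomal protein genes were higher, against 39.9% of all genes tested, with a median log2 difference of 1.03. Rpl11 and Rpl5, parts of the large subunit, were at the upper end with 2.55 ± 0.08 and 2.40 ± 0.09 (SE), and Rpl4 and Rplp0 were below the median with 0.76 and 0.79. Ribosomal protein genes have many processed copies in the genome, so their counts are uncertain in part. All 15 MHC class I genes were higher (median 1.92). H2-K1, a class I heavy chain, stood at 3149, 3207, 3093 and 3277 CPM against 555, 653, 827, 688 and 678 CPM. Tap1, the peptide transporter, differed by 2.80 and Nlrc5, the factor that activates these genes, by 3.89.

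MHC class II genes were split, 4 higher and 6 lower. H2-Ab1 and Cd74, of the antigen presenting complex, were lower by 0.96 and 0.54 on the log2 scale, and H2-Ob, of B cells, was higher (2.78). Of 14 NF-κB feedback genes, 11 were higher and 2 lower (median 1.57). Nfkbid, an atypical inhibitor of NF-κB, differed by 4.38 and Tnfaip3 (A20) by 3.23, while Icam1, an adhesion protein also of endothelium, was lower (−2.19). The immediate early list had 8 of 21 tested genes higher and 11 lower. Its members went far apart, from Dusp2, a phosphatase of lymphocytes (3.57), to Ier3 (−5.33). Jun was lower (−2.42), and Fos was not called, at 48.7 to 62.2 CPM against 36.9 to 64.3 CPM.

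Of 24 type I interferon response genes, 12 were higher and 6 lower. Oas3 and Zbp1, sensors of viral nucleic acids, differed by 3.35 and 3.15, whereas Ifit3 and Rsad2, antiviral effectors, were lower (−2.14 and −1.97). Of the circadian clock list, 2 of 18 genes were higher and 11 lower. The repressor gene Nr1d1 and the output gene Dbp were lower (−3.98 and −2.25), and the activator Arntl was higher (1.19). The hour of tissue collection is not stated in the labels. Glucocorticoid response genes had 4 of 12 higher and 5 lower, with Tsc22d3 (GILZ) at 1.97 and Cdkn1a, a cell cycle inhibitor on that list, at −5.10.

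Metabolic genes were mostly lower. Of 21 tested glycolysis and hypoxia genes, 17 were lower and 3 higher (median −2.40). Tpi1, a glycolytic enzyme, stood at 136, 128, 118 and 129.8 CPM against 1820, 1893, 979, 1227 and 1313 CPM, a log2 difference of −3.61 ± 0.20 (SE). Pgk1 and Pkm, other glycolytic enzymes, differed by −3.56 and −2.53, and Vegfa, a hypoxia-induced growth factor, by −6.43. The 3 higher members were Slc2a3 (2.29), a glucose transporter of lymphocytes and neurons, Pdk1 (1.45) and Hk1 (0.45). All 19 cholesterol synthesis genes were lower (median −1.73), with Msmo1 at −2.46 and Sqle at −2.27. Oxidative phosphorylation genes encoded in the nucleus were lower in 21 of 25 cases, and with upper quartile scaling in 16, by a small amount (median −0.54). Heat shock genes were lower in 10 of 14 cases and higher in none, with Hspb1 at 0.421 to 0.673 CPM against 58.9 to 373 CPM.

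Dividing-cell genes did not move as 1 group. Of 18 DNA replication genes, 13 were higher and 3 lower (median 0.51), and of 18 mitosis genes, 2 were higher and 11 lower (median −0.31). With upper quartile scaling the mitosis count was 4 higher and 8 lower. Mki67, a marker of dividing cells, stood at 659.9, 630.5, 669 and 602 CPM against 239.9, 211, 179, 258 and 235 CPM, a log2 difference of 1.41 ± 0.09 (SE). Mcm7, of the replicative helicase, differed by 1.19 and Cdc6, which loads it, by 1.45. Lung here includes the dividing tumour cells. Xist, the long RNA that silences an X chromosome in female cells, stood at 1446 to 1599 CPM against 158 to 280.3 CPM, and of 4 Y-linked genes counts were seen for Uty alone, in 1 CD4 library (0 to 0.0618 CPM over the group). The sex of the mice was not given, and lung also holds RNA of the tumour line.

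The treatment of the series, propranolol, blocks β-adrenoceptors, so adrenoceptor and cAMP genes are given in these untreated libraries. Adrb1, the β1-adrenoceptor, stood at 0.681, 0.929, 0.393 and 1.17 CPM against 22.1, 7.82, 44.3, 34.1 and 32.7 CPM. Every CD4 library was below every lung library, with a log2 difference of −5.23 ± 0.52 (SE, adjusted p = 1.68e-06 in edgeR's test). Adrb3, another β-adrenoceptor, had counts in only 2 CD4 libraries, at most 0.112 CPM, against 0.752 to 4.78 CPM in lung. Adra1a, an α-adrenoceptor, had 2 counts in 1 CD4 library. Its ratio of summed counts, lung over CD4, was 485, with an exact 95% interval for counting error of 134 to 4009. Adra1b, Adra1d and Adra2a, other α-adrenoceptors, were lower as well, at no more than 0.140, 0.0618 and 0.494 CPM in any CD4 library. Without CD4 replicate 3 the call of Adra2a was lost (adjusted p = 0.0526 in edgeR's test). Adra2b and Adra2c were below the filter, at no more than 0.482 CPM in any library.

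**Figure D5:**
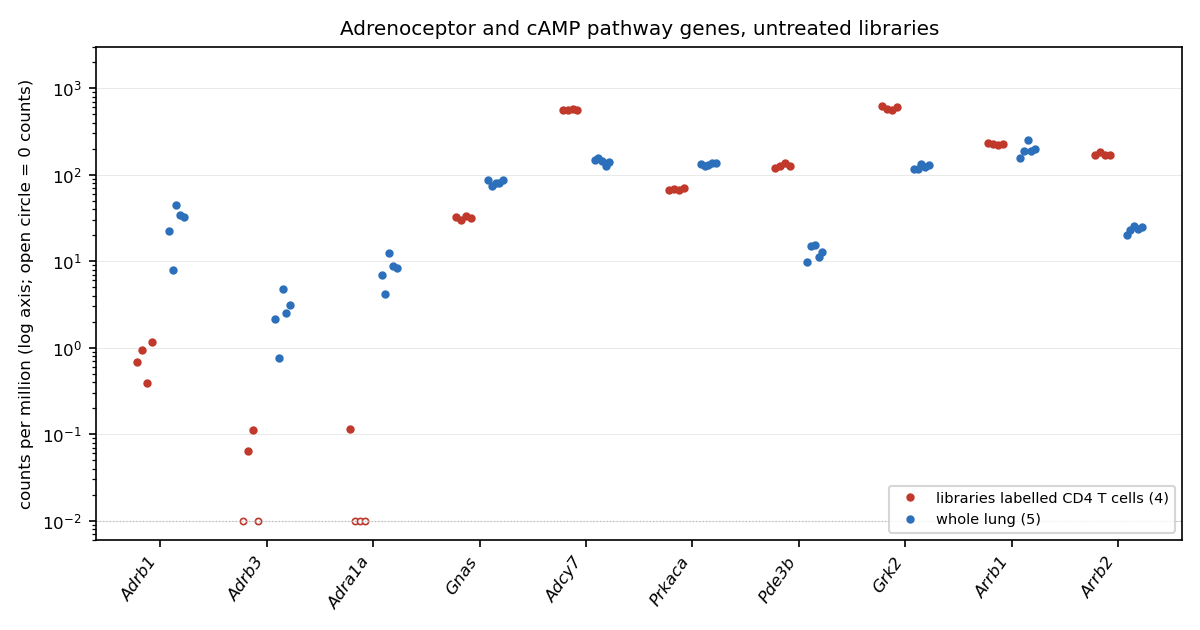
CPM on a log axis for 10 genes of adrenoceptor and cAMP signalling, 1 point per untreated library, for the 4 CD4 libraries and 5 whole lung libraries, with open circles for 0 counts. Adrb1, Adrb3 and Adra1a are lower in the CD4 libraries, and Adcy7, Pde3b, Grk2 and Arrb2 are higher.

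Of the 27 adrenergic and cAMP genes, 25 passed the filter, 9 of them higher and 13 lower (median −0.52). Downstream of the receptor, Gnas, the stimulatory G protein that couples to adenylyl cyclase, was lower (−1.46 ± 0.06, SE), and Adcy7, the cyclase isoform of blood cells, was higher (1.87 ± 0.07, SE). Adcy7 stood at 564, 557, 577 and 560.3 CPM against 146, 157, 144, 127 and 139.8 CPM, without overlap. Prkaca, the catalytic subunit of protein kinase A, was lower by 1.07 on the log2 scale, and Pde3b, which breaks down cAMP, was higher (3.21). Grk2, the kinase that switches off the activated receptor, stood at 619, 583, 566 and 604 CPM against 116, 117, 133, 124 and 130.1 CPM (2.15 ± 0.06, SE). The regulatory subunit Prkar1a was lower (−0.65) and the second catalytic subunit, Prkacb, higher (0.69). Creb1, the transcription factor that protein kinase A activates, was higher (0.77) and its relative Crem lower (−0.52). Of the other cyclases, Adcy6 was higher (0.44) and Adcy3 and Adcy9 were lower (−0.53 and −2.13). Of the other cAMP phosphodiesterases, Pde4d and Pde7a were higher (1.58 and 1.14), Pde4a was lower (−0.61), and Pde4b, at 74.3 to 89.1 CPM against 65.4 to 92.9 CPM, was not called. Arrb2, the arrestin that then binds the receptor, was higher (2.77), and Arrb1 was not called (0.10, but called with upper quartile scaling and without lung replicate 3, adjusted p = 0.0199 in edgeR's test).

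The same contrast was made in libraries that share none with the untreated one, 4 CD4 T cell libraries and 5 whole lung libraries from mice given propranolol. Of 19241 genes tested, 15234 (79.2%) were called. Genes chosen for a large difference are set against all genes below, so larger shares were likely from the outset. Of the 2780 genes higher by more than 4-fold in the untreated contrast, 2382 passed the filter in the treated one. Of these 2382, 1712 (71.9%) were called higher there, against 32.1% of all genes tested. Of the 4454 lower ones, 4229 were tested and 4071 (96.3%) were called lower, against 47%. Called the other way were 143 and 51. The T cell receptor list was again higher in 8 of 8 cases (median 5.41), and Sftpc, Scgb1a1, Tyrp1 and Dct again had 0 counts in the CD4 T cell libraries. Ighg2c and Car1 were again higher, with log2 differences of 3.93 and 10.14, at 67.2 to 156 CPM for Car1.

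Some genes took the opposite side in the treated libraries. Zbtb7b, higher in untreated CD4 libraries, stood at 40.01, 33.6, 36.6 and 37.3 CPM against 83, 83.8, 81.6, 84.7 and 69.1 CPM with propranolol (log2 difference −0.92). Cd14 stood at 61.4 to 73.7 CPM against 22.1 to 29.5 CPM and Areg at 35.4 to 40.4 CPM against 2.63 to 8.19 CPM, both higher there. The median of the immediate early list was 3.20 in the treated contrast, with 19 genes higher, beside −0.39 in the untreated one, over the members tested in each. The heat shock list had 9 of 14 genes higher and 2 lower there (median 1.01, beside −0.77), and oxidative phosphorylation genes encoded in the nucleus 9 higher and 2 lower of 25 (0.11, beside −0.54). Of 21 glycolysis and hypoxia genes, 7 were higher and 8 lower there (−0.18, beside −2.40). The medians of the T helper 17, mitosis, MHC class II and glucocorticoid lists were also below 0 without treatment and above 0 with it, and those of the platelet and interferon lists the other way round. The median over all genes tested also moved, from −0.07 without treatment to −0.34 with it. The treated median of the interferon list, −0.34, was at that level, so its sign sets it apart from no background. Whether the contrasts differ was not tested here.

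Set beside the 4 untreated libraries labelled monocytes, which came in the same table as whole lung, the CD4 libraries gave 15953 called genes of 18763 tested (85%), with 40.8% of the tested genes higher and 44.2% lower. This comparison shares the CD4 libraries with the one against lung. Cd3e stood at 7.45, 13, 29.4 and 39 CPM and Cd8a at 13.5, 38.9, 88.4 and 111 CPM in the libraries labelled monocytes. The T cell receptor list differed by a median of 3.37 on the log2 scale from these libraries and by 6.80 from lung. The summed level of the melanocyte list in the libraries labelled monocytes was 4897 to 5901 CPM, between those of the CD4 and the lung libraries.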

How the data were processed

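RNA of 4 CD4 T cell libraries and 5 whole lung libraries from untreated mice was compared. The authors deposited raw counts per gene in one table for CD4 T cells and another for whole lung and monocytes. Per the submitters' processing notes, STAR 2.7.9, featureCounts of Subread 2.0.3 and the GRCm39 build were used. Their roles, the annotation release and the strand setting are not given in the sources used here. Reads of overlapping and antisense genes therefore cannot be told apart.

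The tables were joined by gene identifier (55416 identifiers, 52083 or 94% with a symbol). Counts were tested with edgeR 4.0.16 in R 4.3.3 (quasi-likelihood test, TMM scaling, default filter with a minimum count of 10, Benjamini-Hochberg adjustment over all genes tested, threshold 0.05) and, for a second rule, an estimated difference over 4-fold. The test code was checked on simulated counts in which most genes were alike in both groups, unlike in these data. That check therefore does not cover the scaling. Log2 differences come from this fit and CPM values from library totals. The SE of a log2 difference is its size divided by the square root of the test's F statistic. It can be too small where a group has few counts. Where 1 group had 0 counts, 3 counts over the group set a floor, and for 1 to 3 counts an exact 95% interval of the ratio was used. Such floors and intervals cover counting error only. Pairs of replicates differed by more than counting noise and none was merged, although repeat preparations of one sample would differ by more than counting noise too.

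Members and gene lists were chosen with earlier results of these data known, and 4 lists (red cell precursors, granulocyte precursors, basophils and eosinophils, and spleen, lymph node and thymus) after the values were seen. Named genes are the 10 called genes that differed most upward and the 10 that differed most downward, where the higher group averaged 10 CPM or more, leaving out predicted loci and receptor segments; members of the T cell receptor, helper, inhibitory and adrenergic lists; up to 6 abundant members and up to 3 members against the trend of other lists; and markers of other cell types. A few named genes fall outside this rule and were chosen after their values were seen. Some genes of these lists are counted but not reported here.

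Replicate numbers were taken from the labels. Libraries with the same number did not deviate together (correlations of −0.03 to 0.043), so the numbers were not used as pairs in the main test. Alternatives were other scalings, DESeq2 1.42.0, limma-voom (limma 3.58.1), other filters, a replicate block, all 26 libraries in 1 fit, a test against a 4-fold difference, and leaving out each library. The replicate block also leaves out lung replicate 5. Promoter sequences came from RefSeq on GRCm38.p6, and no gene coordinates are given because the counts use another build. Age, sex, dose and hour of collection are not given in the labels.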

Additional observations from a re-analysis of the deposited data

Results flagged for a closer look

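Single libraries stood apart from the others of their group in 33 of 527 sets of libraries looked at, a rate near the 1 in 20 that chance flags. In the CD4 libraries, replicate 1 was highest for Areg (0.577 to 1.02 CPM over the group, with 1.02 in that library), Marco (0.454 CPM), Pf4 (2.84 CPM), Cdkn1a (3.69 CPM), Lta (17.5 CPM) and Adra1a (0.114 CPM) and lowest for Tox (61.2 CPM), Rsad2 (12.1 CPM) and Cd244a (10.8 CPM). Replicate 2 was highest for Tgfbr2 (347 CPM), Rpl11 (588 CPM), Hspb1 (0.673 CPM), Arrb2 (182 CPM) and Pde4a (15.2 CPM). Replicate 3 was highest for Ptprc (2110 CPM), Il7r (441 CPM) and Cd96 (107 CPM) and lowest for Abca3 (147 CPM), and replicate 4 was highest for Adra1d (0.0618 CPM).

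In lung, replicate 2 was highest for Col1a1 (1855 CPM, the others 536 to 834), Fn1 (1261 CPM), Acta2 (128 CPM), Marco (44.4 CPM) and Tmem176b (358 CPM) and lowest for Ikzf2 (6.83 CPM), Cd160 (0.181 CPM) and Pde4d (20.1 CPM). Replicate 3 was highest for Havcr2 (12.9 CPM), Ltb (12.9 CPM), Slc4a1 (3.97 CPM) and Prss34 (0.0523 CPM), and replicate 4 for Ccr8 (0.378 CPM) and Adra2a (1.09 CPM). CD4 replicate 1 and lung replicate 2 had the most such values, 9 and 8.

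For 13 of the named genes, all CD4 libraries lay on one side of all lung libraries without treatment and on the other with propranolol. Sides were judged on CPM, not on the fitted differences. Only named genes were searched, and the share over all genes was not worked out. In the untreated contrast, the libraries did not overlap in 78.5% of all genes tested. The difference between the contrasts was not tested. Log2 differences are given without and with propranolol. Crem, a cAMP-responsive factor, differed by −0.52 and 6.29, Areg by −2.98 and 3.21, Cdkn1a by −5.10 and 0.77, Cd14 by −4.05 and 1.56, Rora by −0.81 and 1.10 and Havcr2 by −1.38 and 0.65. Prkar1a differed by −0.65 and 1.20. Zbtb7b differed by 1.18 and −0.92, Ccr2 by 1.77 and −0.71, Adcy6 by 0.44 and −2.03, Adcy7 by 1.87 and −0.22, Cd244a by 1.38 and −0.52 and Prkacb by 0.69 and −0.0123.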

How the results depend on the processing

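The counts of genes called moved by more than 1.5 times with the filter on low counts. With a mean of at least 5 CPM, the untreated contrast with lung had 10631 genes called and 5474 lower, and over 4-fold 3361, of which 1087 higher and 2274 lower. The treated contrast then had 10137 called and 5635 lower, and the contrast with the libraries labelled monocytes 5373 lower. Without a filter, 4270 genes were higher over 4-fold in untreated libraries. Fewer or more genes are tested there by construction. Leaving out 1 library at a time gave 15351 to 16232 genes called untreated (7352 to 7751 higher, 7999 to 8481 lower), 6894 to 7565 over 4-fold (2667 to 2915 higher, 4179 to 4685 lower), 14489 to 15874 with propranolol (5895 to 6397 higher, 8563 to 9477 lower) and 15907 to 16271 against monocytes (7215 to 7755 higher, 8248 to 8701 lower). With the replicate number as a block, which also leaves out lung replicate 5, 14884 genes were called untreated. Without that library alone, 15351 were called. Of the named genes only Il4 lost its call with the block. Library totals alone and upper quartile scaling shifted the median of all genes by 0.10 and 0.18, and the share of called genes that were higher was 47.6% with TMM, 45.9% with DESeq2 size factors, 50.7% with library totals and 52.8% with upper quartile scaling.

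Of 4575 recomputed values of 271 named genes, 4549 kept direction and call. Values near 0 turned sign for Tgfbr2 (−0.0124 without a filter, −0.0062 without lung replicate 1, with a range of −0.0062 to 0.1336 over the libraries left out), Csf3r (0.0532, upper quartile), Siglech (−0.0329 without lung replicate 2, up to 0.5370) and Pde4b (0.0397 with library totals, 0.1121 with upper quartile, 0.0021 with the 5 CPM filter), none of them called in either case. The median of the glucocorticoid list turned from −0.21 to 0.0682 without lung replicate 3, with a lowest value of −0.2475. The causes were not tested. Leaving out 1 library moved called values of low genes by over 1.5 times: Btnl10 to 11.52 and Ccr8 to 6.54 (lung replicate 4), Mpo to 10.89 and Slc4a1 to 7.43 (lung 3), Car1 to 14.79 (lung 2), Cd40lg to 8.29 (lung 5), Marco to −8.12 (CD4 1), Adrb3 to −6.67 and Adra1b to −6.05 (CD4 3), and Ppbp to −3.47 and Adra2a to −2.94 (CD4 4). For Prss34 (lung 3), Adra1a (CD4 1) and Adra1d (CD4 4), the library left out held the only counts of the lower group, and without it the difference is only bounded. At these depths, 3 counts over a group are 0.0257 CPM in the CD4 libraries and 0.0149 CPM in lung.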
